A study of Mus musculus with 24 samples.

Results

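The precursor of microRNA-21a, mir-21a, was followed through BV2 mouse microglial cells and the extracellular vesicles (EVs) they released. It was taken as the row for mmu-mir-21a (here mir-21a) in each count table, 1 of 1187 microRNA precursors listed. BV2 is a line of newborn mouse microglia immortalised with oncogenes. The cells were kept as controls or given for 72 h the bacterial product LPS at 100 ng/mL, the cytokine IL-10 at 50 ng/mL or the cytokine TGF-β at 50 ng/mL, and small RNA was sequenced from cells and from EVs. This gives 8 groups of 3 libraries, 24 in all. All groups come from the same cell line. The labels do not say if the libraries within a group are from different cultures, so that p-values measure only the spread between them, which may be technical. LPS is widely used to bring macrophage-like cells to a pro-inflammatory state, and IL-10 and TGF-β are cytokines that damp inflammation.

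MicroRNAs are cut from a hairpin precursor into short mature strands, the 5p and 3p arms, which guide Argonaute proteins to messenger RNAs mainly through the seed at bases 2 to 8. In macrophages the mir-21 gene is transcribed in response to Toll-like receptor signalling through NF-κB and to the IL-10 pathway factor STAT3, and its product targets Pdcd4, an inhibitor of translation whose loss raises IL-10. In other cell types SMAD proteins of the TGF-β pathway are known to raise mature miR-21 by aiding the processing of its primary transcript. In the GRCm38 mouse assembly the Mir21a gene lies at chr11:86584067-86584158 on the minus strand. In GENCODE M21 this interval is inside the untranslated part of exon 12 of Vmp1-201, a transcript of the vacuole membrane protein gene Vmp1.

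The mature sequences are shown because the tables count precursors and near-identical relatives could share reads. They are the RefSeq entries on GRCm38.p6, 5′ to 3′, with the seed in capitals. The miR-21a-5p arm lies at chr11:86584120-86584141 and the miR-21a-3p arm at chr11:86584082-86584103, both on the minus strand. miR-21b is encoded at chr3:29636768-29636790 on the plus strand.
miR-21a-5p: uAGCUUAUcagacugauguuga
miR-21a-3p: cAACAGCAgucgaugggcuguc
miR-21c: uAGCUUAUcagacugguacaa
miR-21b: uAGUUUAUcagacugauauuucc
Counting from 1 at the 5′ end, miR-21c has the same seed as miR-21a-5p and differs from it by A16G, G18A, U19C, U20A and G21A. miR-21b differs within the seed by C4U and later by G18A, G21U and A22C. Over all 24 libraries mir-21a had 10931 counts, mir-21b had 10 and mir-21c had 4. How reads that match several precursors were treated is not given in the labels or headers.

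The depth was 185400 to 409969 counts in a cell library, and 15071 to 28727 in one from EVs. A detection floor of 3 counts corresponds there to shares of 0.000732% to 0.00162% and of 0.0104% to 0.0199%. Floors and intervals of shares cover counting error only. All 5 microglia and macrophage marker precursors had counts in every cell group, with a summed level of 2816 to 4527 CPM (counts scaled to a library total of 1000000). Most of that sum was mir-142a. mir-150 had 4, 1, 3 and 1 counts, summed over 3 libraries, in control, LPS, IL-10 and TGF-β cells. In EV groups 1 or 2 of the 5 had counts (299 to 2977 CPM), and mir-223, mir-511 and mir-150 were at 0 in every EV group. Marker lists of other cell types summed in cells to 115 to 308 CPM (neuron), 6.93 to 59.9 CPM (epithelium), 65.6 to 193 CPM (muscle and endothelium) and 0 to 11.4 CPM (liver, red cell and serum). In EVs they summed to 0 to 2269, 209 to 9445, 209 to 1768 and 0 to 1411 CPM. The epithelium sum there was nearly all mir-203, with 59, 29, 78 and 215 counts in control, LPS, IL-10 and TGF-β EVs. Its other members had 0 to 2 counts in a group. The liver, red cell and serum sum came mostly from mir-144 (11, 1, 25 and 0) and mir-486a (12, 0, 0 and 3). In EVs, 62.1% to 90.4% of counts fell on 9 precursor rows known to overlap other RNA classes such as rRNA and tRNA, against 10.2% to 27.6% in cells.

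In cells mir-21a was higher after LPS and after IL-10 and lower after TGF-β. Its counts were 440, 644 and 506 in the 3 control cell libraries, 1119, 875 and 1092 with LPS, 1927, 1577 and 1949 with IL-10, and 183, 253 and 221 with TGF-β. As a share of all counts, mir-21a took 0.161% ± 0.0123 (SD, n = 3) in control cells, 0.493% ± 0.0312 with LPS, 0.523% ± 0.0514 with IL-10 and 0.0711% ± 0.00684 with TGF-β, each with n = 3. Every LPS and IL-10 cell library lay above every control and every TGF-β cell library lay below every control, while the LPS and IL-10 shares overlapped. An exact permutation test of the between-group F of the log2 share over the 4 cell groups gave p = 0.00026, where the smallest value that the 15400 arrangements allow is 6.49e-05. In bulk RNA a change in the amount per cell cannot be told apart from a change in the number of cells that hold it.

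**Figure D1:**
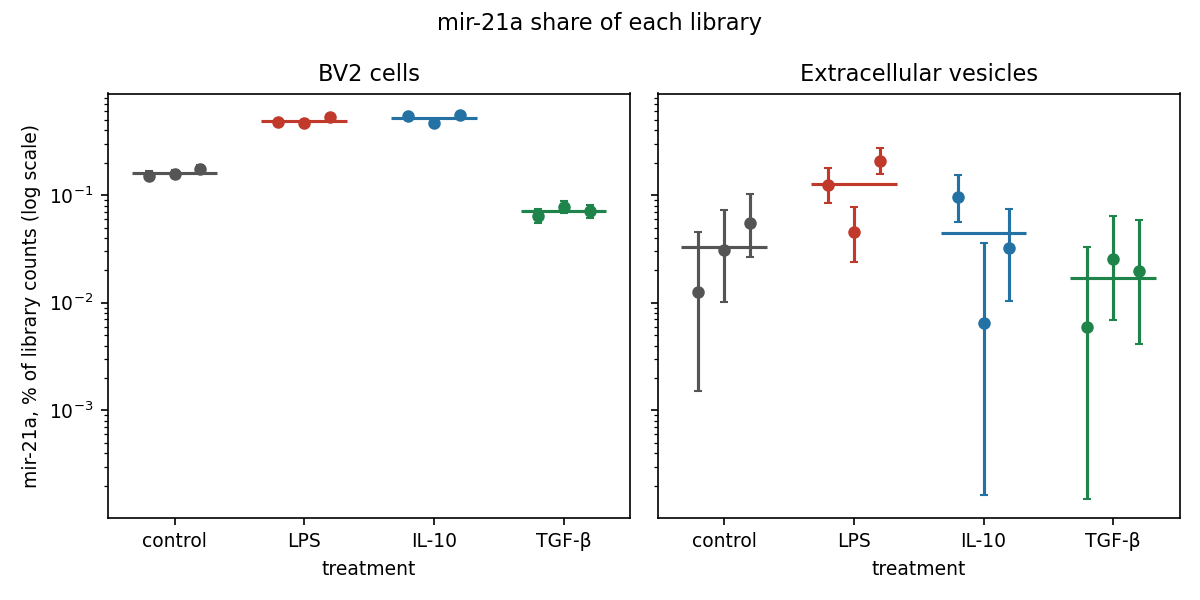
Share of all counts taken by mir-21a (percent, log axis) in each of the 24 libraries, cells and EVs, by treatment; points are libraries with exact 95% counting intervals and horizontal lines are group means. Cell groups lie between 0.0646% (TGF-β) and 0.557% (IL-10), and EV libraries scatter from 0.00598% to 0.209%.

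Read counts were then scaled with TMM factors and tested with edgeR's quasi-likelihood test over the 259 precursors that passed the filter in cells. Normalised mir-21a levels were 1205, 1506 and 1528 CPM in control cells, 5718, 5546 and 5938 CPM after LPS, 5267, 5240 and 5340 CPM after IL-10, and 651.0, 809 and 621 CPM after TGF-β. Within a group the coefficient of variation was 0.975% to 14.6%. The rise after LPS was 4.06-fold (95% interval 3.31 to 4.97), a log2 fold change of 2.02 ± 0.14 (SE), with a Benjamini-Hochberg adjusted p = 5.53e-11. LPS was also the treatment with the widest response, since 32% of the precursors tested were called at an adjusted p under 0.05 (20.8% higher and 11.2% lower).

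After IL-10 mir-21a rose 3.74-fold (3.05 to 4.57), a log2 fold change of 1.90 ± 0.14, with an edgeR adjusted p = 9.48e-10. In that comparison 7.72% of precursors were called (5.41% higher and 2.32% lower), and mir-21a had the smallest p-value of the 259, under TMM and under the 9 other settings tried. By size of change it also ranked 1 of 259 under TMM. With no filter it ranked 27 of 700, and this was the only setting in which it was not first. After TGF-β mir-21a fell to 0.491 of the control level (0.399 to 0.604), a log2 fold change of -1.03 ± 0.14, with an edgeR adjusted p = 4.14e-05 and 6.56% of precursors called (3.47% higher and 3.09% lower). The normalised levels of mir-21a did not overlap with those of controls in any of the 3 comparisons, which held for 47.5% of all precursors tested with LPS, 32% with IL-10 and 25.9% with TGF-β. The 3 comparisons share the same control libraries. Across them 3 of 259 precursors were called in all, namely mir-21a, mir-210 and mir-222, and mir-222 was the other one with mir-21a's directions.

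**Figure D2:**
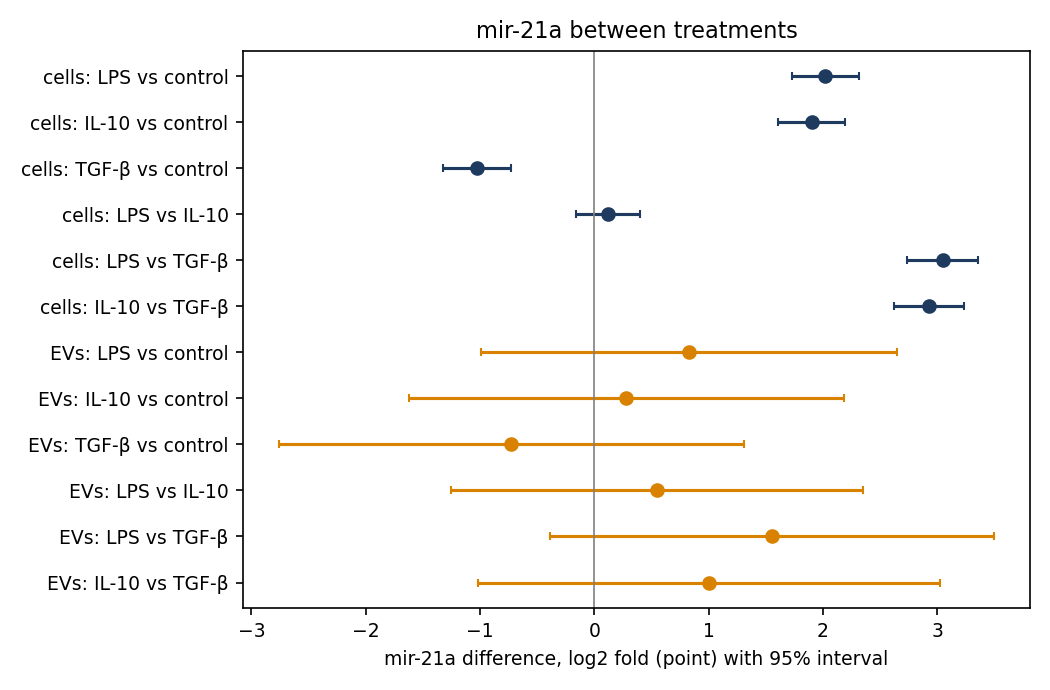
Log2 fold change of mir-21a with 95% intervals from edgeR, for each treatment against control and for pairs of treatments, in cells and in EVs; the line at 0 marks no change. The cell intervals exclude 0 except for LPS against IL-10, and every EV interval includes 0.

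The treatments fell in the order TGF-β, control, and then IL-10 and LPS together. LPS and IL-10 cells differed by a log2 fold change of 0.12 ± 0.14, or 1.09-fold (0.894 to 1.32), with an edgeR adjusted p = 0.553 where 44.4% of precursors were called. Their normalised levels did not overlap, with LPS the higher, which was true of 51% of all precursors in that comparison, whereas in raw share IL-10 had the higher mean. The sign of this difference thus followed the scaling, as did the call, since it was -0.084 with library totals and 0.47 (adjusted p = 0.00422) when libraries were scaled by their let-7 counts. LPS cells exceeded TGF-β cells 8.26-fold (6.66 to 10.3; edgeR adjusted p = 5.51e-14, 32% called). IL-10 cells exceeded TGF-β cells 7.61-fold (6.15 to 9.43; edgeR adjusted p = 4.32e-13, 14.7% called), again the smallest p-value of the 259. The groups did not overlap in either comparison, nor did those of 40.9% and 22.8% of all precursors.

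The composition of the libraries also moved with treatment in cells, because the 9 rows that overlap other RNA classes took 23.9% to 27.6% of counts with LPS, 14.4% to 17.2% in controls, 10.2% to 13.3% with IL-10 and 12.6% to 17.3% with TGF-β. With those rows left out of the fit, the log2 fold changes of mir-21a against control were 1.98 with LPS, 1.91 with IL-10 and -1.08 with TGF-β. The let-7 precursors, abundant microRNAs, took a mean of 49.5% of counts in control cells, 38.9% with LPS, 57.3% with IL-10 and 51.7% with TGF-β. Per 1000 let-7 counts, cells held 3.26 ± 0.176 mir-21a counts in controls, 12.7 ± 0.588 with LPS, 9.15 ± 1.14 with IL-10 and 1.37 ± 0.103 with TGF-β (SD, n = 3 each). On that scale too, LPS and IL-10 lay above control and TGF-β below.

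Precursors of the same pathways gave a background for each treatment. Of 15 precursors listed as induced by TLR4 and NF-κB, a list without mir-21a, 8 were tested in cells. After LPS the list median was a log2 fold change of 2.30 beside 0.09 over all precursors. Of the 8, 6 rose and none fell, beside 20.8% higher and 11.2% lower over all. They were mir-146a (5.63 ± 0.18) and mir-146b (4.49), which restrain TRAF6 and IRAK1 in the Toll-like receptor pathway, mir-155 (4.06 ± 0.30), which promotes inflammatory signalling in macrophages and targets Ship1, mir-132 (2.32 ± 0.66), mir-222 and mir-221. The others, mir-125b-1 and mir-125b-2, each gave -1.06 with an edgeR adjusted p = 0.0873. With values this alike, the pair may not be 2 independent members. With library totals or let-7 scaling, 6 of the 8 were called higher after LPS and 2 lower. Over all 259 precursors, 30 were then higher and 101 lower with library totals, and 47 and 30 with let-7 scaling. A precursor could pass the filter (33.1 CPM in cells) through the LPS libraries alone, so a rise could itself bring a member into the test. mir-155 had 24 summed counts in control cells and 196 with LPS, and mir-132 had 8 and 20. With only the groups compared, 7 were tested and 5 of them were called higher, beside 48 of all 246 precursors. After IL-10 3 of the 8 were called, all higher, beside 5.41% higher over all precursors. They were mir-146a (0.65 ± 0.15, edgeR adjusted p = 0.0128), mir-146b (0.68) and mir-222, with a list median of 0.66 beside 0.05 over all. None of the 3 was called with let-7 scaling, where the median over all precursors was -0.37. mir-155 gave 0.73 with an edgeR adjusted p = 0.243 after IL-10. After TGF-β 1 of the 8 was called, mir-222, lower, beside 3.09% lower and 3.47% higher over all precursors. With TMM, 1 call among 8 does not set the list apart from that share. The list median was -0.44 beside 0.09. With DESeq2's size factors 3 of the 8 were called lower, beside 17 of all 259 precursors. With library totals or let-7 scaling 4 of the 8 were, beside 19 and 30 of the 259.

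**Figure D3:**
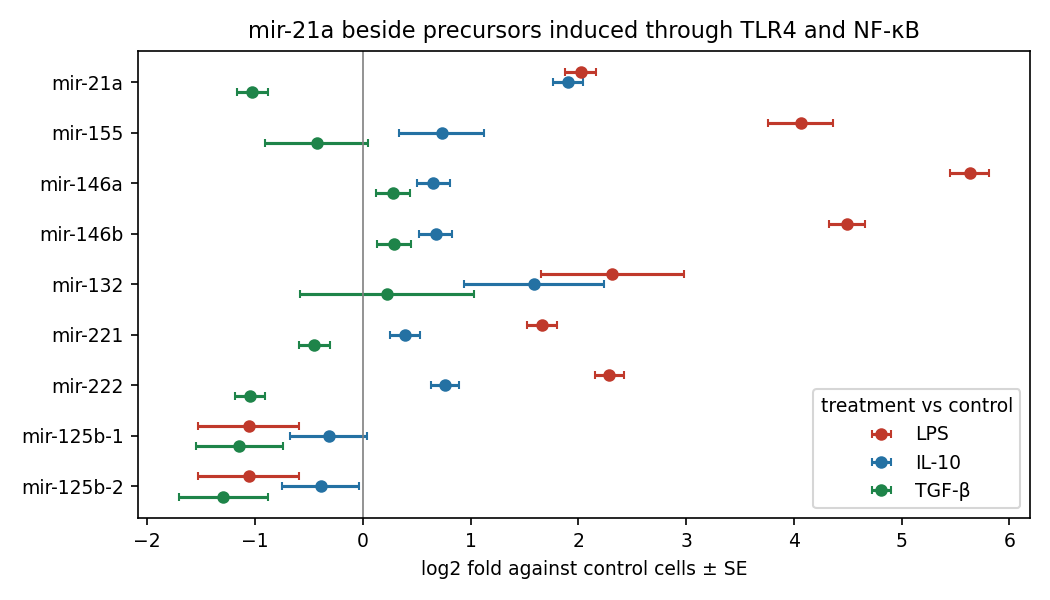
Log2 fold change against control in cells (edgeR, bars are SE) for mir-21a and the 8 tested precursors of the TLR4 and NF-κB list, after LPS, IL-10 and TGF-β. mir-146a reaches 5.63 after LPS and 0.65 after IL-10, whereas mir-21a stands at 2.02 and 1.90.

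The list linked with IL-10 and STAT3 had 5 of 7 members tested, again without mir-21a. After IL-10 3 of the 5 rose and none fell, beside 5.41% higher and 2.32% lower over all precursors, and the list median was 0.68 beside 0.05. They were mir-342 (1.54 ± 0.22), let-7e (0.49; edgeR adjusted p = 0.0339) and mir-146b. With let-7 scaling 1 of the 5 remained called, higher, beside 4 higher and 56 lower of all 259 precursors. As let-7e is itself 1 of the 13 let-7 rows that set this scaling, its value there is not an independent check. After LPS 3 rose (mir-155, mir-146b and mir-342), beside 20.8% over all precursors, with a list median of 1.73 beside 0.09, and 1 fell, the myeloid precursor mir-223 (-0.66; edgeR adjusted p = 0.043), and after TGF-β mir-223 fell (-1.70). The list linked with TGF-β and SMAD had 14 of 21 members tested. After TGF-β 1 of the 14 was called, a share near the 6.56% called over all precursors. It was mir-23a, which rose by 0.58 ± 0.14 with an edgeR adjusted p = 0.00911. After IL-10 none of the 14 was called. After LPS 5 of the 14 rose and 3 fell, beside 20.8% and 11.2% of all precursors. The 5 were mir-155 and the mir-29 precursors mir-29a (0.74), mir-29b-1 (1.28), mir-29b-2 (1.45) and mir-29c (0.71), known regulators of collagen genes. The 3 that fell were mir-181a-1 (-1.34), mir-181a-2 (-1.52) and mir-24-2 (-0.34). Scaled by library totals the LPS counts in this list became 3 higher and 8 lower of 14, beside 30 higher and 101 lower of all 259 precursors. Several of these calls were lost with 1 library left out, while the direction stayed. After LPS the calls of mir-181a-1, mir-181a-2, mir-24-2 and mir-223 were lost without control library 3, at -0.90, -1.10, -0.32 and -0.55 with edgeR adjusted p = 0.161, 0.112, 0.112 and 0.119, and each also without LPS library 1 or 3, mir-181a-1 without LPS library 2 as well. Without LPS library 2 or 3 mir-181a-1 stood at -1.54 and -1.49, farther from 0 than with all libraries. mir-29c lost its call without control library 2 (0.45, adjusted p = 0.0704) and mir-132 without LPS library 3 (2.16, adjusted p = 0.0578). After IL-10 mir-146a, mir-146b and let-7e lost theirs without control library 1 (0.0616, 0.0547 and 0.102) or IL-10 library 3 (0.0715, 0.0673 and 0.0698), and let-7e also without control library 3 (0.0869) or IL-10 library 2 (0.163). mir-23a lost its call after TGF-β without TGF-β library 2 (0.0661). The call of mir-21a was lost in none of these. The mir-29b and the mir-181a precursor pairs each encode an identical mature arm, so the division of reads within a pair is uncertain. The list counts took both members of such a pair as separate precursors.

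The 5 precursors whose profile lay nearest to that of mir-21a, by the root mean square difference of centred log2 normalised CPM over the 12 cell libraries, were mir-222 (0.565), mir-342 (0.566), mir-221 (0.775), mir-132 (0.790) and mir-139 (0.841), against a median of 1.33 over all other precursors. mir-222 measured 726, 816 and 755 CPM in control cells, 3761, 3575 and 3877 CPM after LPS, 1358, 1213 and 1323 CPM after IL-10, and 370, 329 and 410.3 CPM after TGF-β. mir-222, known in human cells to target the cell cycle inhibitor p27, rose after LPS (2.29 ± 0.13), rose less after IL-10 (0.76 ± 0.13) and fell after TGF-β (-1.05 ± 0.14). Unlike mir-21a it differed between LPS and IL-10 cells, by a log2 fold change of 1.52 ± 0.13 with an edgeR adjusted p = 2.22e-09. mir-342, hosted by the Evl gene, matched mir-21a in the other respect: it rose after LPS (1.73 ± 0.23) and IL-10 (1.54 ± 0.22), with 0.19 between them (edgeR adjusted p = 0.545), and gave -0.11 after TGF-β (edgeR adjusted p = 0.799). mir-221, mir-132 and mir-139 rose after LPS (1.66, 2.32 and 1.66), and their values after IL-10 (0.39, 1.59 and 0.37) and TGF-β (-0.45, 0.23 and -0.37) were not called.

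The mature 3p arms of the mir-221 and mir-222 pair are shown because both were among the nearest profiles and share a seed, here in capitals. They lie on the minus strand of chromosome X at chrX:19146901-19146923 for miR-222-3p and chrX:19146307-19146329 for miR-221-3p (GRCm38.p6, RefSeq).
miR-222-3p: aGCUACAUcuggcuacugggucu
miR-221-3p: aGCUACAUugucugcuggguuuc
None of the 9 mature arms listed for the 5 nearest precursors (0 of 9) shares the seed of miR-21a-5p.

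**Figure D4:**
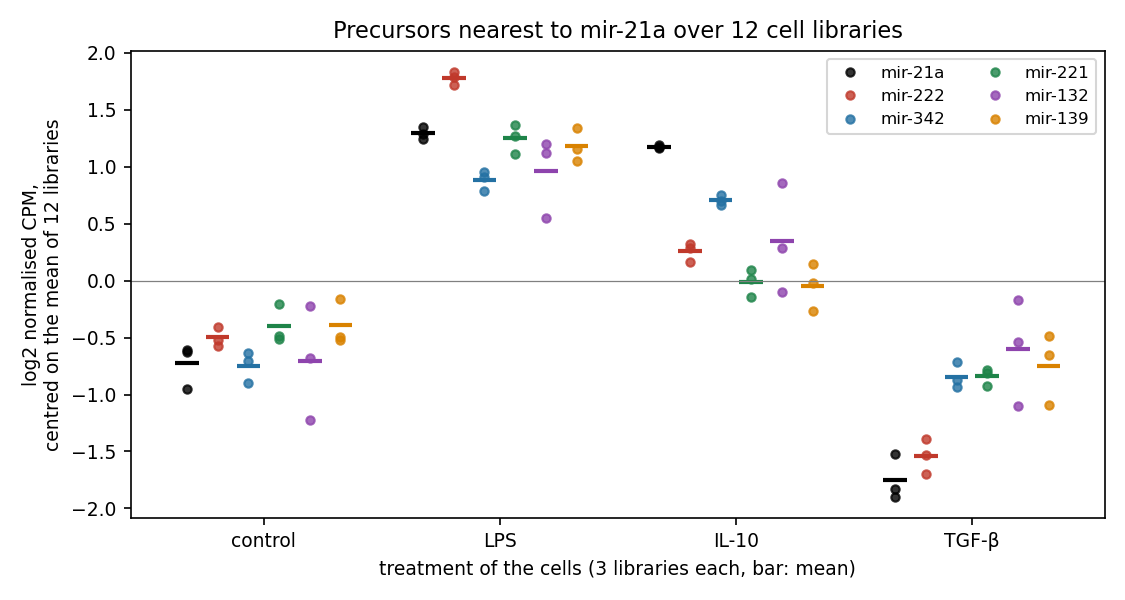
Centred log2 normalised CPM in the 12 cell libraries for mir-21a and its 5 nearest precursors, by treatment; points are libraries and bars are group means. mir-21a and mir-342 reach similar levels after LPS and IL-10, while mir-222 lies lower after IL-10 than after LPS.

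In EVs mir-21a had 1 to 54 counts in a library, and control EV library 1, IL-10 EV library 2 and TGF-β EV library 1 lay below the floor of 3 counts. There were 2, 5 and 10 counts in control EVs, 30, 13 and 54 with LPS, 17, 1 and 5 with IL-10, and 1, 4 and 3 with TGF-β. Pooled over the 3 libraries of a group, the share was 0.0340% in control EVs (17 of 49943 counts; exact Clopper-Pearson 95% interval 0.0198 to 0.0545), 0.124% with LPS (97 of 78537; 0.100 to 0.151), 0.0472% with IL-10 (23 of 48718; 0.0299 to 0.0708) and 0.0168% with TGF-β (8 of 47637; 0.00725 to 0.0331). Single libraries ran from 0.0453% to 0.209% in the LPS group and from 0.00649% to 0.0959% in the IL-10 group. The shares of the groups overlapped, except that every LPS EV library lay above every TGF-β EV library, whose highest share was 0.0253%. The exact permutation test over the 4 EV groups gave p = 0.155.

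Normalised EV levels were 373 ± 223 CPM in controls, 668 ± 373 with LPS, 443 ± 304 with IL-10 and 221 ± 114 with TGF-β (SD, n = 3 each). The coefficient of variation was 51.5% to 68.5%. mir-21a was among the 71 precursors tested in EVs because 2 LPS libraries and 1 IL-10 library reached the filter of 611 CPM, and no control or TGF-β library did. LPS against control was 1.77-fold (0.504 to 6.26; edgeR adjusted p = 0.552), where 18.3% of precursors were called. IL-10 against control was 1.21-fold (0.325 to 4.53; edgeR adjusted p = 0.953), where edgeR called 0 of 71 (0%), DESeq2 called 0 and 5 had an unadjusted p under 0.05. TGF-β against control was 0.605-fold (0.148 to 2.48; edgeR adjusted p = 0.868), where 4.23% were called. These intervals contain the folds measured in cells (4.06, 3.74 and 0.491), so changes of the size seen in cells are not excluded in EVs.

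Between treated EV groups mir-21a was not called either. LPS against IL-10 EVs was 1.46-fold (0.419 to 5.11; edgeR adjusted p = 0.705, 23.9% called) and LPS against TGF-β EVs was 2.94-fold (0.763 to 11.3; edgeR adjusted p = 0.231, 31% called). With library totals in place of TMM factors the latter was called, at a log2 fold change of 2.85 with an adjusted p = 0.0364. IL-10 against TGF-β EVs was 2.01-fold (0.494 to 8.15; edgeR adjusted p = 0.883), where edgeR called 0 of 71 (0%), DESeq2 called 0 and 3 had an unadjusted p under 0.05. Relative to let-7, EVs held 7.53 ± 4.20 mir-21a counts per 1000 let-7 counts in controls, 12.5 ± 7.29 with LPS, 8.10 ± 4.80 with IL-10 and 5.04 ± 2.94 with TGF-β (SD, n = 3 each). The let-7 share itself was 7.65% to 12.3% of counts in LPS EVs and 3.52% to 5.09% in control EVs, and the rows overlapping other RNA classes took 62.1% to 75.3% and 83.4% to 86.8%. The part of this composition in the higher raw share after LPS was not tested.

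Whether EVs held relatively more or less mir-21a than their cells depended on what the counts were set against. As a raw share of all counts, the EV mean was 0.205 of the cell mean in controls, 0.256 with LPS, 0.0858 with IL-10 and 0.240 with TGF-β. Per let-7 count the same ratios were 2.31, 0.982, 0.885 and 3.67, and per count outside the 9 rows that overlap other RNA classes they were 1.14, 0.601, 0.414 and 1.34. The ratio after IL-10 was the lowest of the 4 on each of these scales. In the edgeR fit of all 24 libraries, EVs against cells gave log2 fold changes of -0.10 ± 0.48 in controls (adjusted p = 0.871, 38.6% of 280 precursors called), -0.85 ± 0.36 with LPS (adjusted p = 0.0702, 30.7% called), -1.48 ± 0.44 with IL-10 (adjusted p = 0.00775, 43.2% called) and 0.42 ± 0.63 with TGF-β (adjusted p = 0.623, 43.2% called). The IL-10 value, 0.358-fold (0.191 to 0.670), was the one called with TMM. Under 5 of 10 other settings that call was lost, among them DESeq2's size factors (-0.49) and let-7 scaling (-0.040), and it was also lost without IL-10 cell library 2 (-1.06, adjusted p = 0.0973) and without IL-10 cell library 3 (-1.22, adjusted p = 0.0604). The control value was called with library totals (-2.26, adjusted p = 0.00137), and the TGF-β value was called in opposite directions with library totals (-2.07, adjusted p = 0.0100) and with DESeq2's Wald test (1.47, adjusted p = 0.0160). The LPS value became called under 5 of the 10, and also without LPS EV library 1 (-1.29, adjusted p = 0.0304) or 3 (-1.16, adjusted p = 0.0358).

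**Figure D5:**
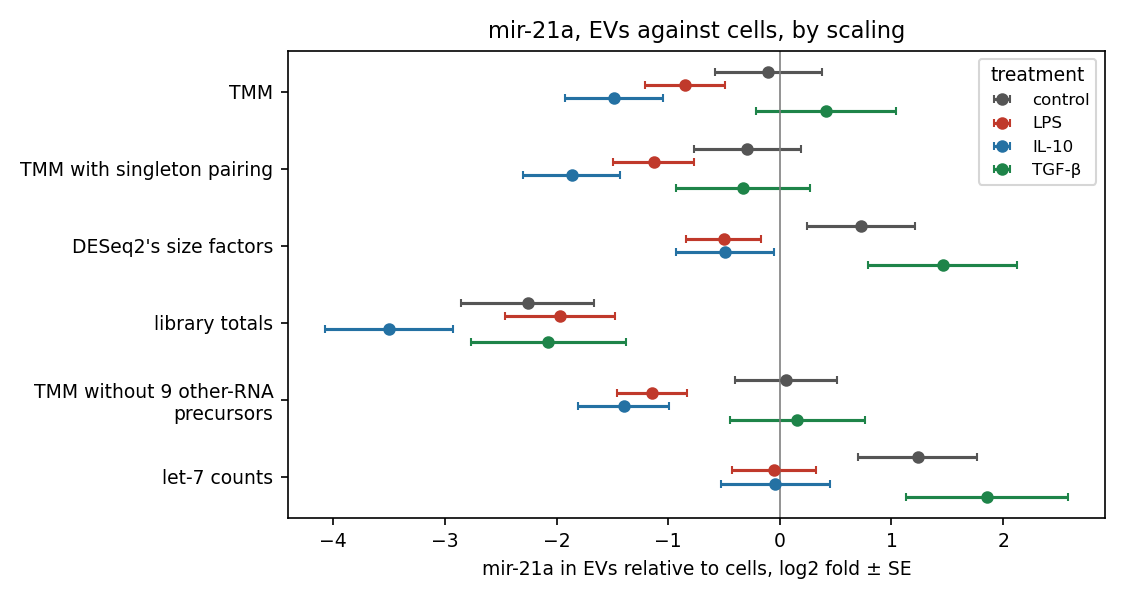
Log2 ratio of mir-21a in EVs to cells for each treatment under the scalings tried (edgeR; bars are SE). The values run from -2.26 to 1.24 in controls and from -3.50 to -0.040 after IL-10, so the sign in controls follows the scaling.

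The treatment effects in EVs were set against those in cells with interaction terms. The difference between the EV and the cell response was -0.75 ± 0.61 on the log2 scale for LPS (edgeR adjusted p = 0.452, 6.07% of precursors called). For IL-10 it was -1.38 ± 0.67, with an unadjusted p = 0.0490 and an edgeR adjusted p = 0.375, where edgeR called 0 precursors (0%), DESeq2 called 4 and 36 had an unadjusted p under 0.05. For TGF-β it was 0.52 ± 0.79 (edgeR adjusted p = 0.880), where edgeR called 0 (0%), DESeq2 called 15 and 30 had an unadjusted p under 0.05. The LPS difference was called by DESeq2's Wald test (-1.23, adjusted p = 0.0257), and by none of the 9 other settings. Those for IL-10 and TGF-β were called under none of the 10.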

How the data were processed

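Small RNA of BV2 cells and their EVs was sequenced in 24 libraries. Per the labels' protocols, miRNeasy-extracted RNA went into SMARTer smRNA-seq libraries amplified over 18 PCR cycles, and no molecular identifiers are mentioned. The deposited values are whole-number counts of reads per microRNA precursor, which the authors did not normalise; arms are not separated. DESeq2 is named, with no version, per the submitters' processing notes. Aligner, annotation, genome build and filters: not given in the sources used here. Of 8 tables, 6 were used, since 2 repeated one of these, and the control columns repeated within a compartment were used once. Column headings give the group of a library but not its sample record.

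Counts were filtered (filterByExpr, minimum count 10), scaled with TMM factors and tested with edgeR 4.0.16 in R 4.3.3 (quasi-likelihood F test, Benjamini-Hochberg over all precursors tested, threshold 0.05), in 12-library fits for cells and for EVs and a 24-library fit for EVs against cells and interactions. The procedure was also run on simulated counts with a common spread for all precursors and the same starting composition in all libraries. The libraries here differ in composition, so that run does not show how it performs on them. Alternatives were DESeq2 1.42.0, its size factors, library totals, other filters, fits of only the groups compared, removal of rows overlapping other RNA classes, leaving out each library, and, chosen after seeing the data, let-7 scaling and TMMwsp. Named precursors are mir-21a, its seed relatives, called members of the pathway lists, the 5 nearest profiles and those called after all treatments in the same directions. mir-210, mir-125b-1, mir-125b-2, mir-142a, mir-511, mir-150, mir-203, mir-144 and mir-486a are named outside this rule, after their values were seen. mir-21a and the lists were chosen with earlier results of these data known.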

Additional observations from a re-analysis of the deposited data

How the results depend on the processing

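In cells, mir-21a kept its direction and call in all 5 comparisons other than LPS against IL-10 under the 9 other settings and with each library left out. Its log2 fold change ranged over the settings from 1.61 to 2.02 after LPS, 1.49 to 1.91 after IL-10 and -1.24 to -1.03 after TGF-β. LPS against IL-10 in cells was -0.084 with library totals and 0.47 with let-7 scaling. In EVs, library totals gave 2.85 for LPS against TGF-β, 1.90 (3.74-fold) for LPS against control and 1.47 (2.77-fold) for LPS against IL-10. EVs against cells in controls was 0.73 with DESeq2's size factors, -2.26 with library totals, 0.79 with a mean count of at least 50, 0.74 with DESeq2's Wald test, 0.056 without the rows overlapping other RNA classes, 0.22 with only the groups compared and 1.24 with let-7 scaling. After LPS it was -1.97 with library totals, -1.28 with no filter, -0.49 with the Wald test, -1.15 without those rows and -1.13 with TMMwsp. After IL-10 it was -0.49 with size factors, -0.72 with a mean of at least 50, -0.44 with the Wald test, -1.13 with only the groups compared and -0.040 with let-7 scaling. After TGF-β it was -2.07 with library totals, -0.53 with no filter, 1.47 with the Wald test and -0.33 with TMMwsp. The LPS interaction was 0.29 with library totals and -1.23 with the Wald test, and the TGF-β interaction was -0.16 with no filter and -0.041 with TMMwsp. The causes were not tested. With 1 library left out, IL-10 against control in EVs ranged from -0.27 to 0.63, EVs against cells from -1.28 to 0.37 in controls, -1.29 to -0.54 after LPS, -2.65 to -1.06 after IL-10 and -0.81 to 0.77 after TGF-β, the LPS interaction from -1.38 to 0.13, the IL-10 interaction from -1.98 to -0.65 and the TGF-β interaction from -0.089 to 0.91. Of 349 values for 24 results of other named precursors, 29 lost their call and 0 changed sign.

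Counts of called precursors in cells were 83 (71 to 131) after LPS, 20 (19 to 60; 5 to 21 with a library left out) after IL-10 and 17 (15 to 35) after TGF-β. Of the 83 after LPS, 54 were higher and 29 lower with TMM, against 30 and 101 if scaled by totals, when the median over all precursors went from 0.09 to -0.32. In EVs, LPS against control gave 13 (4 to 17; 0 to 11 with a library left out), TGF-β against control 3 (0 to 5), LPS against IL-10 17 (10 to 25; 1 to 17) and LPS against TGF-β 22 (11 to 34; 13 to 21). The count after IL-10 in cells fell to 5 without control library 1, 7 without IL-10 library 2 and 9 without IL-10 library 3, and that after LPS in EVs to 1 without control EV library 1, 0 without LPS EV library 2 and 2 without LPS EV library 3. EVs against cells gave 108 (19 to 225; 68 to 136 with a library left out), 86 (41 to 152; 55 to 84), 121 (26 to 219; 79 to 148) and 121 (30 to 215; 92 to 135) in the control, LPS, IL-10 and TGF-β groups, and the interactions 17 (16 to 63; 13 to 32), 0 (0 to 4) and 0 (0 to 15) for LPS, IL-10 and TGF-β.

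In EVs a mean count of at least 50, leaving out the overlapping rows and 4 fits of only the groups compared gave no value, since mir-21a did not pass them. No paired analysis was possible because nothing in the labels pairs libraries across groups. EV values rest on 15071 to 28727 counts per library and on mir-21a levels with a coefficient of variation of 51.5% to 68.5% within a group, and which limits them more was not tested.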

Other observations

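mir-21b, the relative of mir-21a with 1 base changed in the seed, had 6 counts among 224835 in EVs, spread over 5 of 12 libraries, and 4 counts among 3576195 in cells, in 2 of 12 libraries. That is 26.7 CPM in EVs (exact 95% interval 9.79 to 58.1) and 1.12 CPM in cells (0.305 to 2.86). As a share of mir-21a and mir-21b counts together it was 3.97% in EVs (1.47 to 8.45) and 0.0371% in cells (0.0101 to 0.0949). No EV library held more than 2 mir-21b counts, below the floor of 3, and no cell library held more than 3. The intervals cover counting error only, and no test over libraries was made.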
